A study of Homo sapiens with 6 samples.

Results

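The genes described here encode the machinery that transcribes protein-coding genes: the subunits of RNA polymerase II, the subunits of Mediator, and the kinase P-TEFb. They were chosen by name, 45 symbols in all, and each matched 1 of the 78304 genes in the table. The 12 polymerase genes run from POLR2A to POLR2L, 30 genes encode Mediator with its kinase module, and 3 encode P-TEFb. Messenger RNA was measured in Huh7 cells, an established human hepatocellular carcinoma line labelled as wild type. Cells grew for 24 h after seeding and were then given either the compound 16'-DEC, whose dose is not stated in the labels, or DMSO, its solvent control, for another 24 h. Each group had 3 libraries, which the labels do not describe as separate cultures; p-values therefore reflect the variation among libraries alone. The study asked which messenger RNAs were altered by 16'-DEC, with autophagy and liver cancer named in its title.

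RNA polymerase II synthesises messenger RNA. Mediator is a large complex that carries signals from DNA-bound regulators to the polymerase at the promoter, and its head and middle touch the polymerase while its tail is bound by activators. A separate kinase module (CDK8, cyclin C, MED12 and MED13) docks on Mediator reversibly and blocks its contact with the polymerase. P-TEFb, made of CDK9 and a cyclin T, phosphorylates the polymerase tail and its pausing factors and so lets a paused polymerase move on. Liver cells depend on several Mediator subunits as targets of nuclear receptors and lipid regulators.

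Levels are in TPM, a transcript abundance that is scaled for transcript length and to the same sum in every library, and carry no depth. Levels of different genes can be compared only roughly, because the gene lengths and strand use behind them are not stated. Changes are 16'-DEC minus DMSO on the log2(TPM + 1) scale, which understates changes of low genes, and are given ± SE with Benjamini-Hochberg adjusted p from limma over 14275 genes. A gene was called where its adjusted p was under 0.05. The median of all tested genes changed by -0.31, so a gene at 0 stood above most others. With 16'-DEC 13131 to 13459 genes reached 1 TPM, against 14936 to 15118 with DMSO. All 10 hepatocyte and hepatoma markers examined were above 1 TPM, with summed levels of 12200.2 to 12653.8 TPM with 16'-DEC and 13992.3 to 14588.8 TPM with DMSO. Of 10 immune, endothelial and stromal markers, CD3E and DCN were listed at 0 in every library, and CD68 alone averaged over 1 TPM (40.7 ± 4.93 TPM with 16'-DEC and 16.8 ± 0.692 TPM with DMSO, SD, n = 3 each). The summed level of that list was 36.1 to 45.9 TPM with 16'-DEC and 17.4 to 19.6 TPM with DMSO, and its part in the results was not tested. Among the treated libraries, replicate 3 stood apart in long transcripts: those of at least 5000 bases had a median of -0.27 relative to the other treated libraries, against 0.02 for those under 2000 bases. It was the lowest treated library for 10 of the 11 members of at least 5000 bases, and for 3 of the 16 under 2000 bases.

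All 45 genes passed the filter of a mean of at least 1 TPM. The test called 18 of them higher and 15 lower, and left 12 uncalled. In all 33 were called, or 73.3%, near the 71.5% of all tested genes. By direction 40% of the members were higher, where 22.7% of all tested genes were, and 33.3% were lower, where 48.9% were. Their median change was 0.10. In such bulk libraries fewer cells of a kind and less RNA per cell cannot be told apart. At least 2-fold, 1 was higher and 8 were lower, where all tested genes had 2.63% and 23.7%. The libraries of the groups did not overlap in 35 of the 45 genes, or 77.8%, against 75.3% of all tested genes: every treated library was above every control library in 20 members (background 24.3%) and below in 15 (background 51%). Polymerase, Mediator outside its kinase module, the kinase module and P-TEFb are taken in turn below, and subunits of the same complex went opposite ways in each of these but the kinase module.

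**Figure D1:**
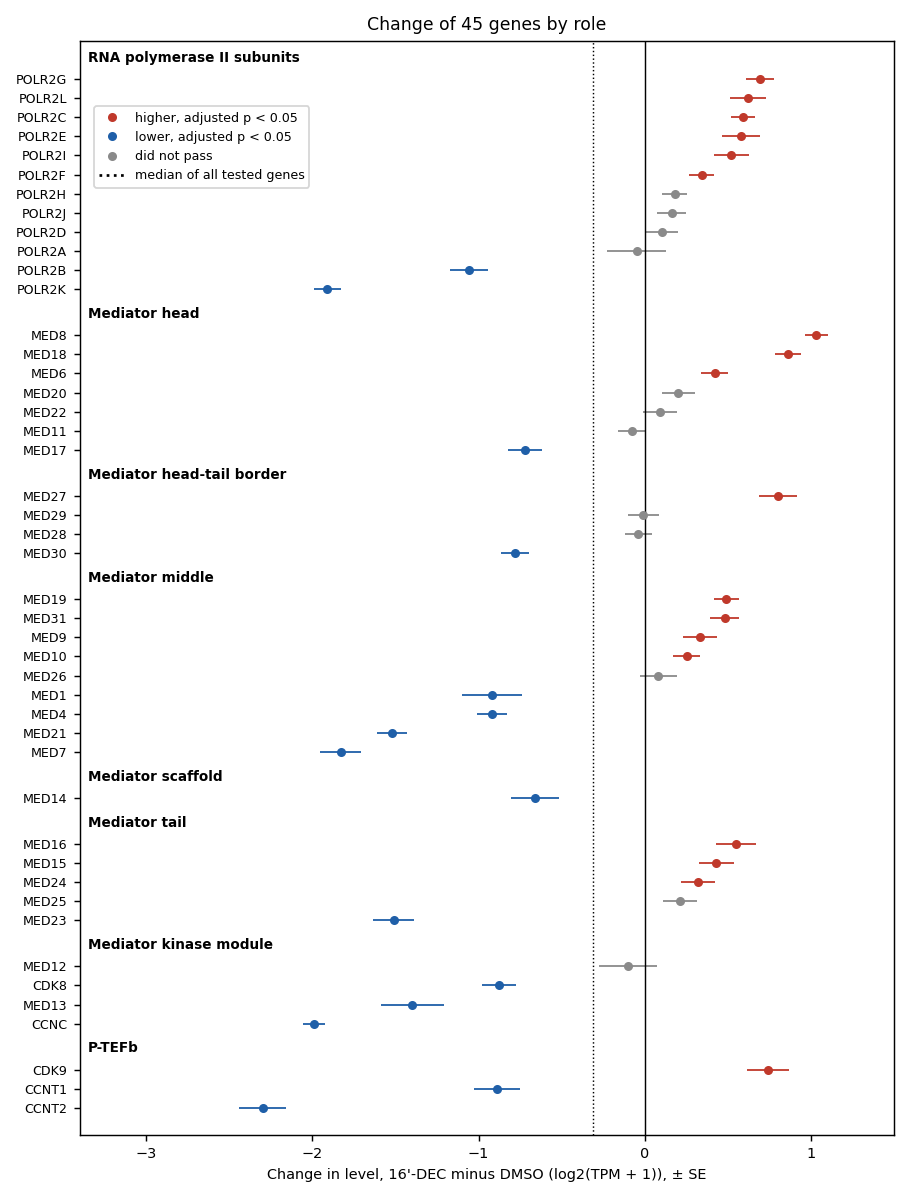
Change in level of each of the 45 genes (16'-DEC minus DMSO, log2(TPM + 1), horizontal axis), grouped by role, with bars for the SE over 3 libraries per group. Points are coloured by call, and the dotted line at -0.31 is the median of all tested genes. Most groups hold genes on either side of 0, while the kinase module holds none above it.

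The promoters of 4 called genes are printed first, because they stand near the ends of the range: CCNT2 and CCNC fell most, and MED18 rose most among the 33 of the 45 genes with a window in the RefSeq table. CDK9, which rose less than MED18 and MED27, is shown as the partner of CCNT2. Each is the 250 bases before the gene's RefSeq start, read 5′ to 3′ on the gene's strand (GRCh38.p14). Capitals mark matches on either strand to the CCAAT box, the GC box, the ETS motif, the cAMP response element and the NRF1 motif, the last being the longest run of capitals in the CCNT2 and MED18 windows. The TATA box, the E-box and the heat shock element were also searched and had no match in these 4 windows. CCNT2 is at chr2:134918572-134918821 on the plus strand, CCNC at chr6:99568815-99569064 on the minus strand, MED18 at chr1:28328790-28329039 and CDK9 at chr9:127785784-127786033, both on the plus strand. GENCODE 29 starts CCNT2 and CDK9 upstream of these windows and CCNC and MED18 inside them, so part of a window can be transcribed.
CCNT2: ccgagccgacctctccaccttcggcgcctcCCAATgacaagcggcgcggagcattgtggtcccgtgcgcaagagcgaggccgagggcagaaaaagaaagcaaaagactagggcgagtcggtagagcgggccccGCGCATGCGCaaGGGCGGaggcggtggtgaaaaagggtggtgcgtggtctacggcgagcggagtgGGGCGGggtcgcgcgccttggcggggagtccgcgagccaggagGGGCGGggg
CCNC: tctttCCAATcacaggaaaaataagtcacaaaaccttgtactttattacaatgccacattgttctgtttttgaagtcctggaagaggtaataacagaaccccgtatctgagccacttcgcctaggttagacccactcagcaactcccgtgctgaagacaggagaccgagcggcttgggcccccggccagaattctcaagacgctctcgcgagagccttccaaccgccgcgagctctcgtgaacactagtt
MED18: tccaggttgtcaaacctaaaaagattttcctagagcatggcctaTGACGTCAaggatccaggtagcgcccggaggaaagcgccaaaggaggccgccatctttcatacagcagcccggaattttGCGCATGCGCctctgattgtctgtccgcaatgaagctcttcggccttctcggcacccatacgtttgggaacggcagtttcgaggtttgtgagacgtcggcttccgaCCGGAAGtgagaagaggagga
CDK9: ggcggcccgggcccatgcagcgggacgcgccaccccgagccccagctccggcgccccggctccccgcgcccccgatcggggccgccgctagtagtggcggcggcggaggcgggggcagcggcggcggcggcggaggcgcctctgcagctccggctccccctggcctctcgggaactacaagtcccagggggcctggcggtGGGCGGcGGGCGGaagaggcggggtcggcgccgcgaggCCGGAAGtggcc

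The 4 windows differed widely in base composition, at 69.6% GC for CCNT2, 50.4% for CCNC, 54.4% for MED18 and 82% for CDK9. A gene that fell and a gene that rose thus each had a GC-rich window. The NRF1 letters stood in 3 of the 33 members with a window (9.09%), against 1.13% of 27305 promoters: CCNT2, which fell, and MED18 and POLR2F, which rose. Those promoters outnumber the 14275 tested genes and so include genes not tested here. Shares among tested genes alone were not computed, so these shares do not set the members apart from other expressed genes. The ETS letters, CCGGAAG, stood in 9 of the 33 (27.3%), 6 of the 14 that rose and 3 of the 10 that fell, against 8.82% of all promoters. The GC box, GGGCGG, stood in 22 of the 33 (66.7%), 9 that rose and 5 that fell, against 42.3%. CCAAT stood in 9 of the 33 (27.3%), 3 that rose and 5 that fell, against 33%. The E-box letters, CACGTG, stood in CDK8 and CCNT1, both of which fell, or 6.06% of members against 6.49% of all promoters. The heat shock element, alternating GAA and TTC units with gaps of 2 bases, stood in MED19 alone (3.03%, against 0.439%). The TATA box, TATAAA, was in 2 of the 33 (6.06%, against 11.1%), and the cAMP response element, TGACGTCA, was in MED18 alone (3.03%, against 1.77%). The median GC content of the windows was 58.4% for members that rose and 56.6% for those that fell.

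P-TEFb genes were called in opposite directions: the kinase gene CDK9 rose, and the genes of the cyclins that pair with it, CCNT1 and CCNT2, fell. CDK9 (ENSG00000136807, chromosome 9, 127785679 to 127790787, GRCh38 with GENCODE 29, as for all gene positions) was at 40.9, 32.4 and 29.9 TPM with 16'-DEC and at 21, 18 and 21.3 TPM with DMSO. Every treated library was above every control library. The change was 0.74 ± 0.125 (adjusted p = 6.52e-04, limma), a mean ratio of 1.71. CCNT2, cyclin T2, was at 6.97, 6.43 and 4.75 TPM with 16'-DEC and at 36.9, 28.7 and 34.9 TPM with DMSO (ENSG00000082258, chromosome 2, 134918235 to 134959342). This was the largest change of the 45 genes, -2.30 ± 0.144 (adjusted p = 1.31e-06), with a DMSO mean 5.54 times the 16'-DEC mean. CCNT1, cyclin T1, was at 9.1, 9.82 and 6.57 TPM with 16'-DEC and at 17.1, 15.2 and 16.7 TPM with DMSO, a change of -0.89 ± 0.137 (adjusted p = 3.63e-04). Neither cyclin gene overlapped between groups. After an adjustment of each library for transcript GC content and length, CCNT2 stayed lower (-0.74), CDK9 stayed higher (0.58), and CCNT1 was called the other way, at 0.31. That adjustment also re-centres each library. In a version that kept each library's mean, CCNT2 was called lower and neither CDK9 nor CCNT1 was called.

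CCNT1 stood at 1.3, 1.53 and 1.38 times CCNT2 with 16'-DEC and at 0.464, 0.531 and 0.479 times CCNT2 with DMSO. CCNT2 was thus the more abundant cyclin T transcript in every control library, and CCNT1 in every treated one. The log2 ratio differed by 1.52 (exact permutation p = 0.1, 2-sided, the smallest that 3 against 3 libraries allow; adjusted p = 0.1 over 2 ratios). A ratio of genes within a library does not depend on a scaling factor for that library, but it can change with a GC and length adjustment. After that adjustment the changes were 0.31 for CCNT1 and -0.74 for CCNT2, closer together than the -0.89 and -2.30 as deposited. CCNT1 thus still rose relative to CCNT2. CCNT2-AS1, an antisense gene whose span overlaps CCNT2, averaged 1.71 ± 0.412 TPM with 16'-DEC and 2.45 ± 0.068 TPM with DMSO (SD, n = 3 each), and no use of strand in counting is stated.

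The kinase module of Mediator had 3 of its 4 genes lower and none higher, with a median change of -1.14, where 48.9% of all tested genes were lower. The lower genes CCNC, MED13 and CDK8 had transcripts of 39%, 38.7% and 45.3% GC, and MED12 one of 54.5%. Of all tested genes 93.4% were lower under 40% GC, and 66.4% from 40 to under 50%. CCNC, which encodes cyclin C (ENSG00000112237, chromosome 6, 99542380 to 99568973), was at 66, 66.3 and 62.9 TPM with 16'-DEC and at 269, 269 and 249 TPM with DMSO. By level it was the 8th of the 45 genes with 16'-DEC and the 2nd in DMSO, with a change of -1.99 ± 0.0684 (adjusted p = 1.17e-07), and the groups were far apart. CDK8, the kinase, was at 14.3, 14.8 and 13.4 TPM with 16'-DEC and at 26.7, 30.5 and 24 TPM with DMSO. It fell by 0.88 (SE 0.102, adjusted p = 5.78e-05), with no overlap. MED13, the subunit that tethers the module to Mediator, was at 12.3, 9.86 and 6.6 TPM with 16'-DEC and at 28.9, 22.8 and 27.4 TPM with DMSO. Its change was -1.40 ± 0.19 (adjusted p = 1.56e-04) but 0.03 after GC and length adjustment, where it did not pass. MED12, which activates the kinase, was at 9.75, 8.16 and 5.45 TPM with 16'-DEC and at 7.77, 7.85 and 9.03 TPM with DMSO. The MED12 groups overlapped (-0.10 ± 0.175, adjusted p = 0.634), and its value was 0.11 without 16'-DEC replicate 3, 0.21 after median-of-ratios scaling and 0.39, called, after quantile normalization. After GC and length adjustment CCNC (-0.78) and CDK8 (-0.38) were still lower.

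Paralogs can take the place of these subunits. CDK19, the paralog of CDK8, was at 6.21, 5.77 and 5.03 TPM with 16'-DEC and at 16.3, 14.4 and 13.8 TPM with DMSO, a fall of -1.25 ± 0.107 (adjusted p = 8.71e-06). MED13L, the paralog of MED13, was at 9.41, 9.3 and 7.46 TPM with 16'-DEC and at 23.5, 21.6 and 22.3 TPM with DMSO (-1.28 ± 0.104, adjusted p = 6.20e-06). Both fell, and both were lower after GC and length adjustment (-0.26 and -0.47). MED12L, the paralog of MED12, averaged 0.0613 TPM with 16'-DEC and 0.105 TPM with DMSO and was not tested. CDK8 stood at 2.3, 2.56 and 2.67 times CDK19 with 16'-DEC and at 1.63, 2.12 and 1.74 times with DMSO. As deposited CDK8 thus fell less than CDK19, but after GC and length adjustment it fell more (-0.38 for CDK8, -0.26 for CDK19). The log2 ratio differed by 0.46 (exact permutation p = 0.1, 2-sided, the smallest possible; adjusted p = 0.1).

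**Figure D2:**
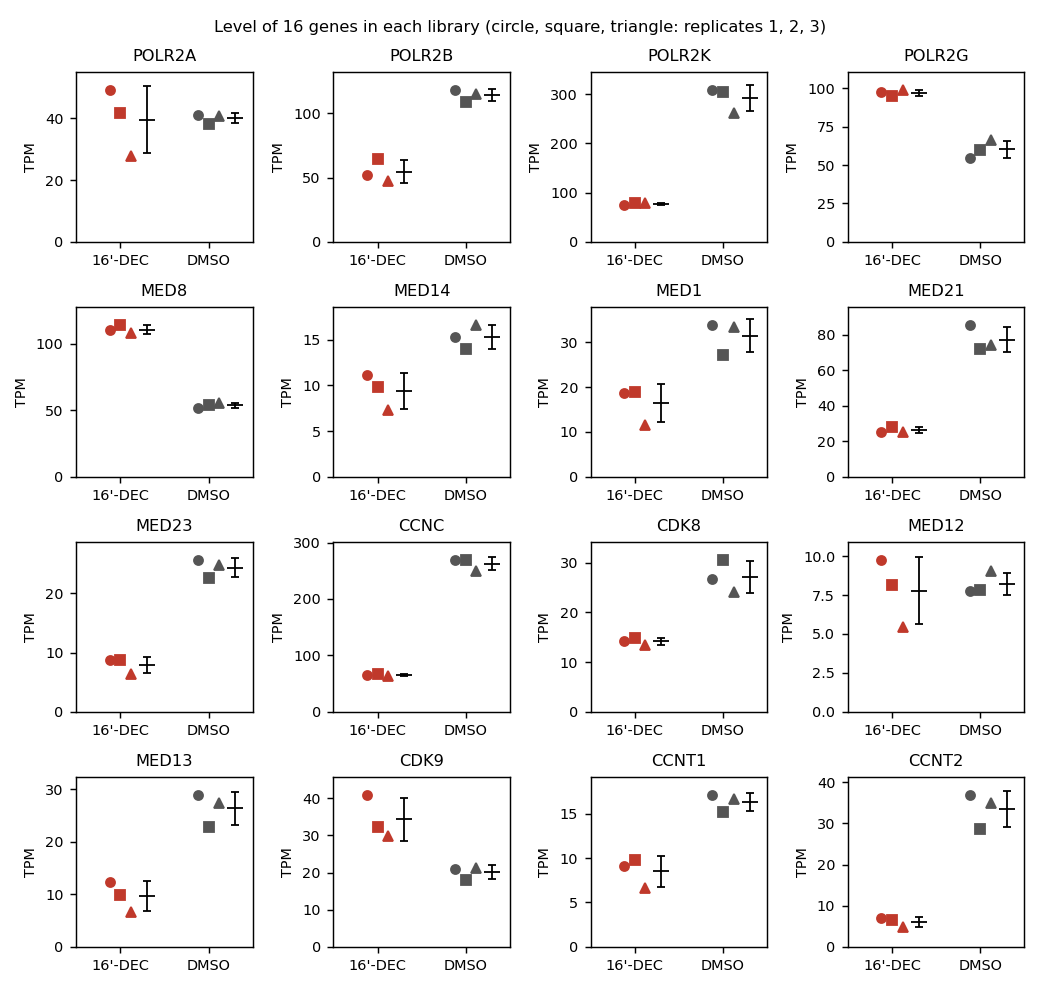
Level in TPM (vertical axes, from 0) of 16 genes in each library, 16'-DEC in red at the left and DMSO in grey at the right of each panel, with the mean ± SD of 3 libraries beside them. CCNC, POLR2K and CCNT2 are far lower in every treated library, and MED8 and CDK9 are higher, while in POLR2A and MED12 the treated libraries spread around the DMSO libraries and replicate 3 (triangle) is the lowest of them.

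Among the polymerase subunits 6 of 12 genes rose (50%) and 2 fell (16.7%), and the remaining 4 were not called (median change 0.26). All tested genes had 22.7% higher and 48.9% lower. The median GC content of these 12 transcripts was 56%, and all tested genes at 50% GC or over had 42.1% higher and 19.1% lower. After the GC and length adjustment with each library's mean kept, 3 polymerase subunits were higher and 6 lower. POLR2A (ENSG00000181222, chromosome 17, 7484366 to 7514616) encodes the largest subunit, which carries the repeated tail that P-TEFb phosphorylates. It was at 49.1, 41.8 and 27.7 TPM with 16'-DEC and at 41.1, 38.1 and 40.6 TPM with DMSO. The groups overlapped and the change did not pass (-0.05 ± 0.178, adjusted p = 0.812); without 16'-DEC replicate 3 it was 0.18, and rescaled values were 0.29 (median of ratios) and 0.26 (quantile). POLR2B, which forms the active site with POLR2A, was at 52, 64.8 and 47 TPM with 16'-DEC and at 118, 109 and 115 TPM with DMSO. It fell by 1.06 (SE 0.114, adjusted p = 3.57e-05) but was at -0.06, not called, after GC and length adjustment. The level of POLR2B was thus above that of POLR2A in every library of either group, by a smaller margin in the treated ones. NOA1 and IGFBP7 overlap the span of POLR2B on the opposite strand, and 14 members in all had such an opposite-strand overlap with a tested gene.

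POLR2K, one of the subunits shared by RNA polymerases I, II and III, had the largest change among the polymerase genes. It was at 74.1, 78 and 78 TPM with 16'-DEC and at 308, 305 and 261 TPM with DMSO, a change of -1.91 ± 0.082 (adjusted p = 2.15e-07), and at -0.50 after GC and length adjustment, still called. POLR2K stood 7th by level with 16'-DEC, with a mean of 76.7 ± 2.28 TPM, and was the most abundant of the 45 transcripts in DMSO, with 292 ± 26.2 TPM (SD, n = 3 each). None of the other shared subunits was called lower. POLR2E had the highest level of the 45 genes with 16'-DEC, 224 ± 9.1 TPM, against 150 ± 24.7 TPM in DMSO (0.58 ± 0.114, adjusted p = 0.00146). POLR2L rose by 0.62 and POLR2F by 0.34, though POLR2F did not pass after GC and length adjustment (0.09). POLR2H, at 92.3, 89.2 and 99.1 TPM with 16'-DEC and 77.9, 85 and 84.6 TPM with DMSO, did not pass (0.18, adjusted p = 0.059), but was called lower, at -0.15, after GC and length adjustment, and higher when rescaled (0.53 by median of ratios, 0.39 by quantiles).

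The remaining polymerase genes rose or did not pass. POLR2G, a subunit of the stalk that protrudes from the polymerase, was at 97.5, 95.1 and 98.8 TPM with 16'-DEC and at 54.5, 60.1 and 66 TPM with DMSO. It rose by 0.69 ± 0.0839 (adjusted p = 8.38e-05), with no overlap, and by 0.73 after GC and length adjustment. POLR2D, its partner in the stalk, did not pass (39.5 ± 4.56 TPM with 16'-DEC and 36.7 ± 1.47 TPM with DMSO, 0.10, adjusted p = 0.401) but did so at 0.66 after that adjustment, at 0.44 (median of ratios) and 0.41 (quantile) when rescaled, and at 0.19 without 16'-DEC replicate 3. POLR2C, part of the platform on which the enzyme assembles, averaged 134 ± 5.31 TPM with 16'-DEC and 88.6 ± 4.44 TPM with DMSO (0.59 ± 0.0721, adjusted p = 8.41e-05). POLR2I, which acts in transcript cleavage and fidelity, rose by 0.52 (60 ± 7.24 TPM with 16'-DEC and 41.4 ± 3.89 TPM with DMSO). POLR2J, the partner of POLR2C, did not pass (53.1 ± 3.07 TPM with 16'-DEC and 47.4 ± 3.9 TPM with DMSO, adjusted p = 0.129). POLR2J has near-identical copies, so reads may be split between them and its level is uncertain.

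In the Mediator head, which binds the polymerase, 3 of 7 genes rose (42.9%) and 1 fell (14.3%). All tested genes had 22.7% higher and 48.9% lower. MED8 had the largest increase of the 45 genes. It was at 110, 114 and 108 TPM with 16'-DEC and at 51.9, 53.9 and 55.1 TPM with DMSO, a change of 1.03 ± 0.0684 (adjusted p = 1.83e-06) and a mean ratio of 2.06, the only one of at least 2-fold upward among the 45. By level it was 3rd with 16'-DEC and 10th in DMSO, and its antisense gene MED8-AS1 averaged 1.02 ± 0.409 TPM with 16'-DEC and 2.54 ± 0.41 TPM with DMSO. MED18, which forms the movable jaw of the head with MED20, averaged 54.6 ± 2.35 TPM with 16'-DEC and 29.7 ± 1.73 TPM with DMSO (0.86 ± 0.0787, adjusted p = 1.33e-05). MED20 itself did not pass (12.2 ± 1.35 TPM with 16'-DEC and 10.4 ± 0.386 TPM with DMSO, 0.20, adjusted p = 0.1), but was called higher at 0.29 without 16'-DEC replicate 3, at 0.44 after GC and length adjustment, and at 0.52 (median of ratios) and 0.68 (quantile) when rescaled. MED6, which links head and middle, rose by 0.42 (54.3 ± 3.92 TPM with 16'-DEC and 40.2 ± 1.59 TPM with DMSO) and by 1.47 after GC and length adjustment.

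MED17, the core subunit of the head, went against it. It was at 21.3, 24.7 and 19.6 TPM with 16'-DEC and at 36.4, 39.2 and 33.8 TPM with DMSO, a change of -0.72 ± 0.103 (adjusted p = 2.34e-04) with no overlap. After GC and length adjustment MED17 was called higher, at 0.27, but not with each library's mean kept. TAF1D, which overlaps its span on the opposite strand, averaged 89 ± 5.91 TPM with 16'-DEC and 389 ± 33.7 TPM with DMSO, and its part in the MED17 value was not tested. MED11 (24.3 TPM with 16'-DEC and 25.7 TPM with DMSO, -0.08) and MED22 (8.52 TPM with 16'-DEC and 7.95 TPM with DMSO, 0.09) did not pass.

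MED27, MED28, MED29 and MED30 lie where head and tail meet, and accounts differ on which module holds them. MED27 was at 23.2, 25.3 and 22.8 TPM with 16'-DEC and at 11, 14.7 and 14.3 TPM with DMSO (0.80 ± 0.116, adjusted p = 2.55e-04). MED30 was at 6.83, 7.4 and 7.03 TPM with 16'-DEC and at 12.5, 13 and 13.1 TPM with DMSO (-0.78 ± 0.0844, adjusted p = 3.88e-05). These went opposite ways without overlap, also after GC and length adjustment (0.74 and -0.25). MED28 averaged 21.4 TPM with 16'-DEC and 22.1 TPM with DMSO, and MED29 15.2 TPM with 16'-DEC and 15.3 TPM with DMSO, and neither passed; MED28 was called higher after GC and length adjustment (0.74), and both were when rescaled (0.30 and 0.37 for MED28, 0.32 and 0.45 for MED29).

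The middle of Mediator had 4 of 9 genes higher (44.4%) and 4 lower (44.4%), against 22.7% and 48.9% of all tested genes. MED7 and MED21 form the hinge of this module and bind each other. MED7 was at 3.93, 4.84 and 4.05 TPM with 16'-DEC and at 19.1, 19.3 and 14.9 TPM with DMSO (-1.83 ± 0.124, adjusted p = 2.03e-06). MED21 was at 25.1, 28.2 and 25.4 TPM with 16'-DEC and at 85.5, 72.3 and 74.3 TPM with DMSO (-1.52 ± 0.0911, adjusted p = 1.02e-06). Neither overlapped between groups, and the DMSO mean was 4.16 times the 16'-DEC mean for MED7 and 2.95 times for MED21. MED7 stayed lower after GC and length adjustment (-0.72), where MED21 did not pass (-0.16, adjusted p = 0.082). MED1, the subunit bound by nuclear receptors, was at 18.7, 19 and 11.6 TPM with 16'-DEC and at 33.8, 27.2 and 33.3 TPM with DMSO (-0.92 ± 0.178, adjusted p = 0.00143; -0.40 after adjustment). MED4 averaged 26.9 ± 2.61 TPM with 16'-DEC and 51.5 ± 2.58 TPM with DMSO (-0.92 ± 0.0914), but was called higher, at 0.45, after GC and length adjustment. With each library's mean kept MED4 was not called higher.

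The middle subunits that rose did so by less. MED19 was at 23, 23.2 and 23.9 TPM with 16'-DEC and at 15.9, 16.7 and 16.4 TPM with DMSO (0.49 ± 0.0749, adjusted p = 3.43e-04). MED31 averaged 43.5 ± 3.26 TPM with 16'-DEC and 30.9 ± 1.95 TPM with DMSO (0.48), and rose by 1.30 after GC and length adjustment. MED9 (0.33, adjusted p = 0.0177) and MED10 (0.25, adjusted p = 0.023) were close to the threshold; after GC and length adjustment MED9 did not pass (0.14) and MED10 was at 0.59. MED9 did not pass without 16'-DEC replicate 2, DMSO replicate 1 or DMSO replicate 3 (adjusted p = 0.0676, 0.0636 and 0.0558), and MED10 did not pass without any of these or 16'-DEC replicate 3 (adjusted p = 0.0743, 0.0567, 0.0559 and 0.0505). Without the first 3 of these libraries only 2 middle subunits were called higher. MED26, which recruits elongation factors, had the lowest level of the 45 genes in both groups (2.89 ± 0.0496 TPM with 16'-DEC and 2.69 ± 0.246 TPM with DMSO) and did not pass.

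MED14, the backbone that joins head, middle and tail (ENSG00000180182, chromosome X, 40648306 to 40735858), was at 11.1, 9.87 and 7.26 TPM with 16'-DEC and at 15.3, 14 and 16.6 TPM with DMSO. Every treated library was below every control library (-0.66 ± 0.143, adjusted p = 0.00261). It did not pass with quantile normalization (-0.19, adjusted p = 0.151) and was called higher, at 0.49, after GC and length adjustment. With each library's mean kept it was not called higher.

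In the tail, which activators bind, 3 of 5 genes rose (60%) and 1 fell (20%). All tested genes had 22.7% higher and 48.9% lower, and those at 50% GC or over 42.1% and 19.1%. The median GC content of the tail transcripts was 60.9%. The genes that rose were at 0.21 (MED15), 0.33 (MED16) and 0.18 (MED24) after GC and length adjustment, still called. With each library's mean kept 0 tail genes were higher and 2 lower. MED23, a target of ELK1, was at 8.75, 8.68 and 6.39 TPM with 16'-DEC and at 25.6, 22.5 and 24.8 TPM with DMSO (-1.51 ± 0.123, adjusted p = 6.42e-06), and -0.40 after GC and length adjustment. MED16, which MED23 and MED24 contact, was at 15.4, 14.9 and 13.6 TPM with 16'-DEC and at 8, 10.9 and 10.3 TPM with DMSO (0.55 ± 0.12, adjusted p = 0.00279). MED15, through which SREBP factors act on lipid genes, rose by 0.43 (31.4 ± 3.29 TPM with 16'-DEC and 23.1 ± 2.04 TPM with DMSO). MED24 rose by 0.32 (52.8 ± 6.84 TPM with 16'-DEC and 41.9 ± 2.29 TPM with DMSO, adjusted p = 0.0211), but did not pass without 16'-DEC replicate 1, 16'-DEC replicate 2, DMSO replicate 1 or DMSO replicate 2 (adjusted p from 0.0603 to 0.0837). MED25 did not pass (0.21, adjusted p = 0.0839) although its groups did not overlap.

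**Figure D3:**
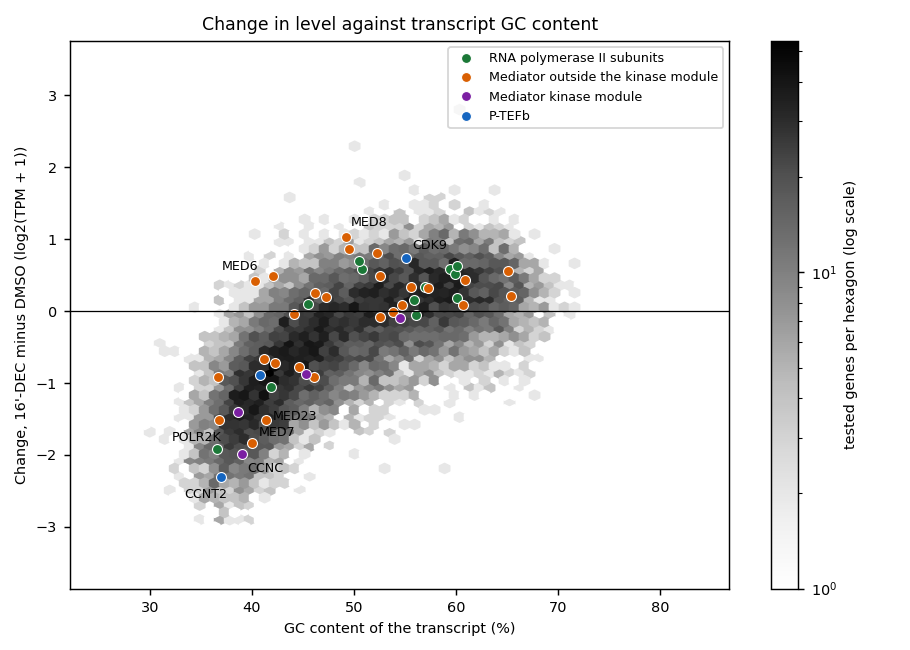
Change in level (16'-DEC minus DMSO, log2(TPM + 1), vertical axis) against the GC content of the transcript (horizontal axis, %) for the 45 genes, coloured by complex, over all tested genes with a GC value (grey hexagons, log scale). The 7 genes under 40% GC lie between -2.30 and -0.92, and the 22 at 50% or over lie between -0.10 and 0.80, along the band of all genes. MED6 lies above that band, and CCNC, CCNT2, MED7 and POLR2K are among the genes below its centre.

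The 15 genes that fell all had transcripts under 50% GC. All 7 members under 40% GC (POLR2K, MED4, MED7, MED21, CCNC, MED13 and CCNT2) were lower, and the same class of all tested genes had 93.4% lower and 1.07% higher. Of the 16 members from 40 to under 50% GC, 5 were higher and 8 lower, where 10.2% and 66.4% of all tested genes in that class were. None of the 22 members at 50% GC or over was lower and 13 (59.1%) were higher, where 19.1% and 42.1% of all tested genes were. Across the 45 genes, which share libraries and are not independent, Spearman's rho between GC content and change was 0.639 (n = 45), and across all tested genes with a GC value 0.68 (n = 13291). Transcript length followed the change less closely (rho -0.441 over the 45 genes and -0.242 over all). The members' median GC content was 49.5%, against 48.8% for all tested genes.

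The GC and length adjustment subtracts from each library a smooth curve of its deviations on those properties, and it also re-centres the library. After it 23 of the 45 genes were higher and 9 lower, against 34.5% and 31.7% of all tested genes, with a median of 0.18 for members and 0.02 for all. MED4, MED14, MED17 and CCNT1 were called lower as deposited and higher after it. None of these genes was called higher in the version, given below, that kept each library's mean. Rescaling alone changed the number of lower calls little. It made the falls smaller, as in MED30 (-0.46 and -0.29, against -0.78 as deposited) and CCNT1 (-0.56 and -0.41, against -0.89). Increases became larger, as in MED8 (1.38 and 1.27, against 1.03). Median-of-ratios scaling, which raised the median gene by 0.29, gave 28 higher and 15 lower (background 37.1% and 37.7%, 74.7% called in all). Quantile normalization, which raised it by 0.41, gave 29 higher and 14 lower (background 42% and 33.3%, 75.2% called in all). Of the 12 members not called as deposited, all but POLR2A and MED12 were called higher by the first, and all but POLR2A by the second. The GC and length adjustment with each library's mean kept, an alternative chosen after seeing the data, gave 10 higher and 21 lower (background 13.5% and 57.8%, 71.3% called in all). In all 4 versions 8 genes were called lower (POLR2K, MED30, MED1, MED7, MED23, CDK8, CCNC and CCNT2) and 16 were called higher. The 8 lower calls also held in each fit without 1 library and with each library's mean kept. The 16 higher ones were POLR2C, POLR2E, POLR2G, POLR2I, POLR2L, MED6, MED8, MED18, MED27, MED10, MED19, MED31, MED15, MED16, MED24 and CDK9. Of these, MED10 and MED24 did not hold in each fit without 1 library. With each library's mean kept only 8 of the 16 were still called higher (POLR2C, POLR2G, MED6, MED8, MED18, MED27, MED10 and MED31).

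**Figure D4:**
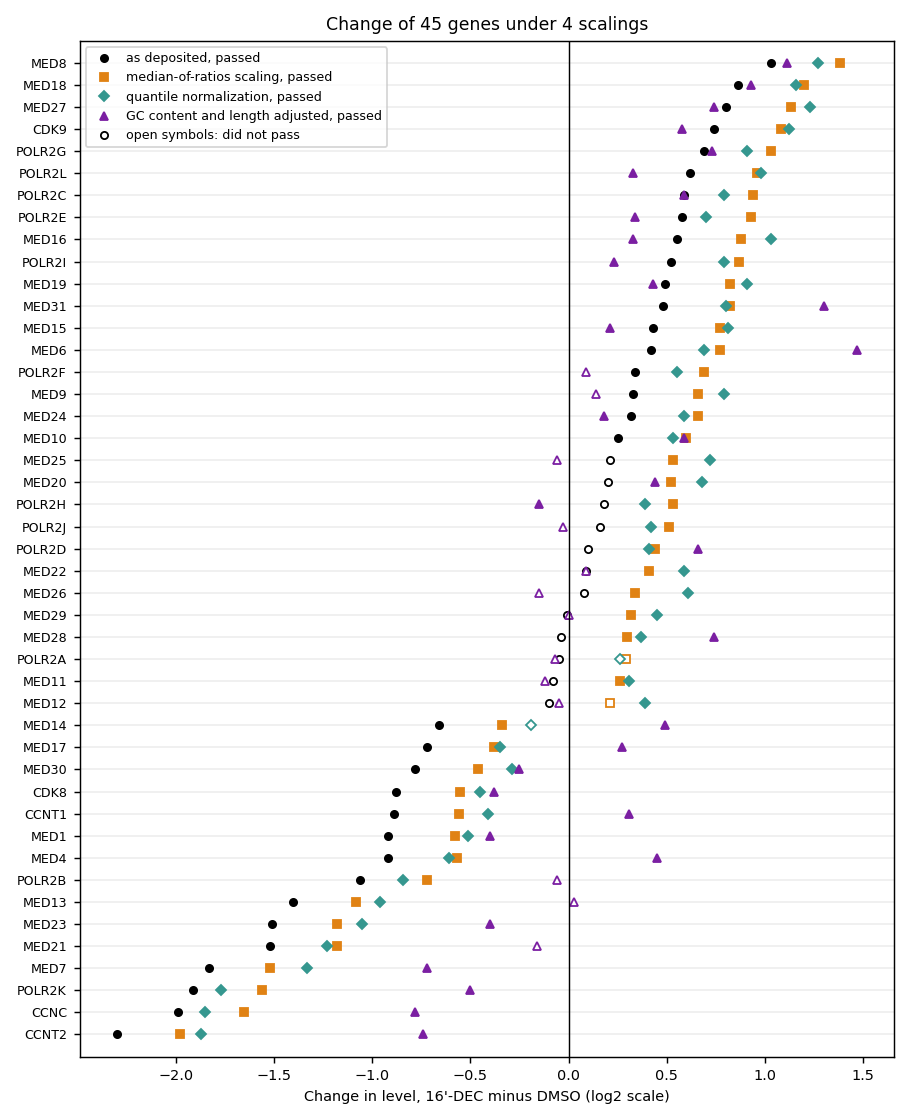
Change of the 45 genes (16'-DEC minus DMSO, log2 scale, horizontal axis) as deposited, after median-of-ratios scaling, after quantile normalization and after GC content and length adjustment; open symbols did not pass. The rescaled values lie to the right of the deposited ones for every gene, while the adjusted values of MED4, MED14, MED17 and CCNT1 cross 0 and those of CCNT2, CCNC and MED7 stay below -0.70.

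Of 107 tested genes in 9 lists of other transcription factors and enzymes 28 rose (26.2%) and 56 fell (52.3%). These shares were near those of all tested genes (22.7% and 48.9%), and the median change of -0.33 was near their -0.31. Among P-TEFb regulators and the super elongation complex 4 of 14 rose and 8 fell, and after GC and length adjustment 5 were higher and 4 lower. LARP7, which stabilises the 7SK RNA that holds P-TEFb inactive, was at 12.7, 13.1 and 12.7 TPM with 16'-DEC and at 87, 94.5 and 89 TPM with DMSO. This change, -2.72 ± 0.0732 (adjusted p = 1.03e-07; -1.57 after GC and length adjustment), was beyond that of any member. HEXIM1, the inhibitor bound to P-TEFb in that complex, averaged 20.7 ± 0.739 TPM with 16'-DEC and 30.1 ± 2.28 TPM with DMSO (-0.52, adjusted p = 5.31e-04), and did not pass when rescaled (-0.18 by median of ratios, -0.12 by quantiles). HEXIM2, its relative, went the other way, with 38.9 ± 1.64 TPM with 16'-DEC and 21.7 ± 2.66 TPM with DMSO (0.82, adjusted p = 8.77e-05).

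General transcription factors had 4 of 18 higher (22.2%) and 12 lower (66.7%), with a median of -0.64. TFIID subunits had 1 of 13 higher (7.69%) and 9 lower (69.2%), with a median of -0.60. All tested genes had 22.7% higher and 48.9% lower, and those from 40 to under 50% GC had 10.2% and 66.4%. The median GC content of both lists lay in that class (40.8% and 46.5%), so their shares of lower genes were near its share. GTF2H2, a subunit of TFIIH, averaged 23.4 ± 1.95 TPM with 16'-DEC and 98.2 ± 2.76 TPM with DMSO (-2.03, -0.74 after GC and length adjustment), and TAF9 103 ± 5.75 TPM with 16'-DEC and 275 ± 18.9 TPM with DMSO (-1.41; -0.93). CDK7, the TFIIH kinase of the polymerase tail, changed by -0.55 and GTF2B, which positions the polymerase at the start site, by -0.52, but they were called higher after GC and length adjustment (0.58 and 0.32) and did not pass with median-of-ratios scaling (-0.20 and -0.18). GTF2F1 rose by 0.48, and TAF6 by 0.25 (-0.01 after adjustment). After the GC and length adjustment the counts of general transcription factors turned round, to 8 higher and 4 lower, but with each library's mean kept 0 were higher and 8 lower. As deposited only 2 were higher without 16'-DEC replicate 1, 16'-DEC replicate 2 or DMSO replicate 3. TFIID subunits had 3 higher and 7 lower after that adjustment, and as deposited 0 higher without any one of those libraries or DMSO replicate 1. Of 16 pausing and elongation factors 8 were higher and 6 lower (median 0.18), but 5 were higher without 16'-DEC replicate 1, 16'-DEC replicate 2 or DMSO replicate 1. SUPT5H, a pausing factor that P-TEFb phosphorylates, rose by 0.52 (58.4 ± 6.47 TPM with 16'-DEC and 40.2 ± 3.31 TPM with DMSO) and PAF1 by 0.66, while TCEA1, which rescues arrested polymerase, fell to 89.9 ± 7.59 TPM with 16'-DEC, against 276 ± 11 TPM with DMSO (-1.61; -0.49 after adjustment).

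Among other genes that act on the polymerase tail 2 of 11 rose (18.2%) and 6 fell (54.5%). For this and the next lists, all tested genes had 22.7% higher and 48.9% lower. By either rescaling 4 were higher and 4 lower, after GC and length adjustment 3 and 3, and 4 were higher without 16'-DEC replicate 3. The phosphatase SSU72 rose by 0.54 and RPRD1A changed by -1.60, and CDK12, a kinase of elongating polymerase, fell by 0.67 (0.10 after adjustment, and not called there or when rescaled). Integrator, which ends transcription early, had 2 of 14 higher and 7 lower (5 and 5 by median of ratios, 6 and 5 by quantiles, 2 and 4 after adjustment; 1 was higher without any one library other than DMSO replicate 2), with INTS11 at 0.45 and INTS6 at -1.70. Of the 8 polymerase I subunits 3 rose and 2 fell (5 rose without 16'-DEC replicate 3, and 1 fell without DMSO replicate 3), led by POLR1D (0.60) and POLR1F (-1.89). Of the 11 polymerase III subunits 4 rose and 4 fell, led by POLR3D (1.00, to 91.6 ± 8.57 TPM with 16'-DEC, against 45.4 ± 5.81 TPM with DMSO) and POLR3G (-2.06, to 3.95 ± 0.641 TPM with 16'-DEC, against 19.5 ± 1.2 TPM with DMSO).

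**Figure D5:**
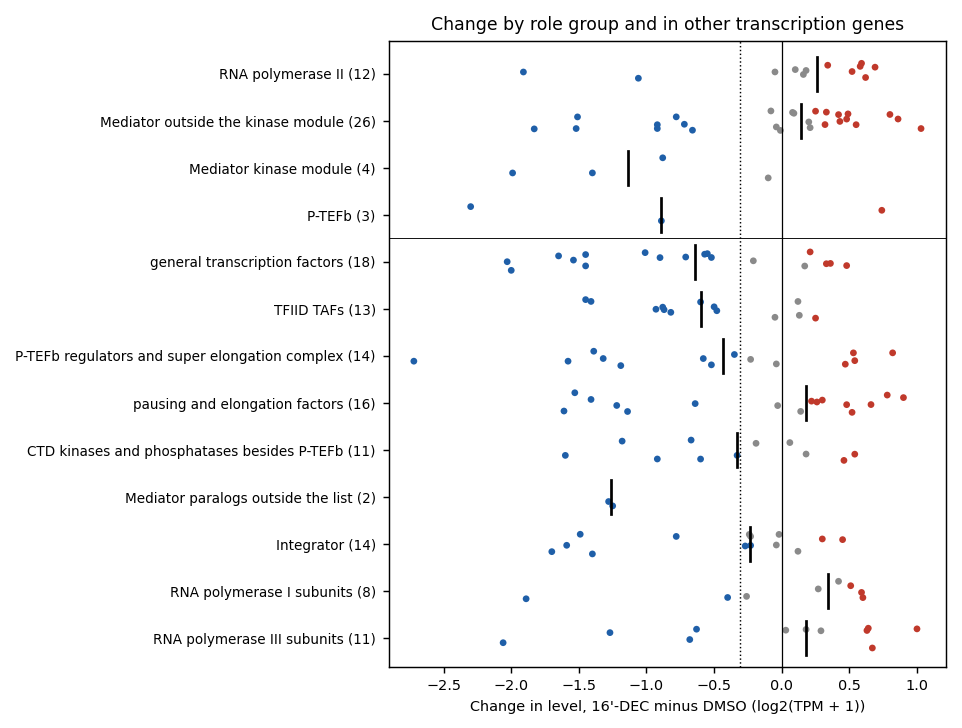
Change in level (16'-DEC minus DMSO, log2(TPM + 1), horizontal axis) of each tested gene by group, members above the line (Mediator outside its kinase module as 1 group) and other transcription genes under it, with the number tested in brackets; red rose, blue fell, grey did not pass, thick bars are medians and the dotted line at -0.31 is the median of all tested genes. Every group drawn but the Mediator kinase module and the Mediator paralogs holds genes on either side of 0.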

How the data were processed

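Poly(A) RNA was sequenced from 3 libraries of Huh7 cells given 16'-DEC and 3 given DMSO, grouped by title. The authors deposited TPM per gene, and every library sums to 1000000. Per the submitters' processing notes, the tools were HISAT2 2.0.1, HTSeq 0.6.1, DESeq2 and cutadapt 1.9.1 and the build GRCh38, with no role stated; the sources used here do not give annotation, gene lengths or strand use, so reads of overlapping or antisense genes cannot be told apart. Depth is unknown from TPM. At most 0.0692% of values at or above 1 TPM were identical between any 2 libraries, and each library was kept as its own sample.

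The test, limma 3.58.1 in R 4.3.3, used log2(TPM + 1) of the 14275 genes averaging 1 TPM or more (eBayes with a mean trend, 2-sided, Benjamini-Hochberg over all tested genes, threshold 0.05), and its script was checked on simulated data. Members and lists were chosen with earlier results of these data known. All 45 members are named, with each library's value for 11 chosen genes and the leading gene each way of each role, and the leading gene each way of each other list plus 9 chosen genes, of which 1 is not reported here. A further few members have library values because a comparison turned on them. Transcript length and GC content came from 1 GENCODE 29 transcript per gene (APPRIS principal, then basic, then longest; for POLR2A the full-length one), which matched all 45 members and 93.1% of tested genes. Alternatives were other pseudocounts, filters and scalings, the GC and length adjustment, no mean trend, a replicate block and leaving out each library. The adjustment used natural splines with 5 degrees of freedom each. Promoters came from RefSeq. The main test did not pair the libraries by replicate number. Figures used matplotlib 3.10.9.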

Additional observations from a re-analysis of the deposited data

How the results depend on the processing

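Of the 45 members, all kept their call and direction with a pseudocount of 0.1 or 5, without the mean trend and with the replicate block (18 higher and 15 lower), and so did those with a mean of at least 5 TPM under that filter; with no filter MED24 did not pass (adjusted p = 0.0651), leaving 17 higher. Deviations of same-numbered libraries from their group means had r = 0.0940, -0.182 and -0.0726, where differently numbered ones ran from -0.196 to 0.274. With 3 libraries per group these values cannot exclude that a number marks a shared culture or batch. The block gave 3014 of all tested genes higher, 6823 of all tested genes lower and, of 16 pausing and elongation factors, 5 higher and 6 lower.

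Scaling moved counts of higher calls. As deposited 3236 genes were higher and 6974 lower; of all tested genes higher there were 5290 after median-of-ratios scaling, 5990 after quantile normalization and 4585 after the GC and length adjustment, which left 4214 lower. Members higher were 28 and 29 with the first 2, which gave the Mediator head 6 and the head-tail border 3, and quantile normalization gave the kinase module 1. Other transcription genes higher went from 28 to 44 and 46. Values that changed sign with these scalings were POLR2A (0.29 and 0.26), MED11 (0.26 and 0.31), MED28 (0.30 and 0.37), MED29 (0.32 and 0.45) and MED12 (0.21 and 0.39). The GC and length adjustment left 9 members lower, with 5 head subunits higher and 0 lower, 2 border subunits higher, 2 middle subunits lower, 2 P-TEFb genes higher and 1 lower, and 33 other transcription genes lower. Signs changed there for POLR2H (-0.15), POLR2J (-0.03), MED17 (0.27), MED28 (0.74), MED29 (5.58e-04), MED4 (0.45), MED26 (-0.15), MED14 (0.49), MED25 (-0.06), MED13 (0.03), CCNT1 (0.31), CDK12 (0.10), CDK7 (0.58), GTF2B (0.32) and TAF6 (-0.01).

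The adjustment with each library's mean kept, added after seeing the data, gave 1797 of all tested genes higher and 7679 of all tested genes lower, 10 members higher and 21 lower, and 7 other transcription genes higher and 64 lower. By role it gave 3 polymerase subunits higher and 6 lower, 2 head subunits lower, 2 border subunits higher and 2 lower, 2 middle subunits higher, 0 tail subunits higher and 2 lower, and 0 P-TEFb genes higher and 1 lower. Signs changed for POLR2E (-0.05), POLR2F (-0.30), POLR2H (-0.53), POLR2I (-0.16), POLR2J (-0.41), POLR2L (-0.05), MED22 (-0.29), MED28 (0.36), MED4 (0.07), MED9 (-0.25), MED26 (-0.53), MED14 (0.10), MED15 (-0.18), MED16 (-0.06), MED24 (-0.20), MED25 (-0.45), CDK7 (0.19), GTF2F1 (-0.14), INTS11 (-0.26), POLR1D (-0.03), SSU72 (-0.10), SUPT5H (-0.00202) and TAF6 (-0.40). In all 17 settings 7 members were called higher (POLR2C, POLR2G, MED6, MED8, MED18, MED27 and MED31) and the same 8 lower. The cause of these shifts was not tested.

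Leaving out 1 library gave 15 to 19 members higher and 15 lower, and 2 to 4 middle subunits higher. POLR2A ran from -0.22 to 0.18, MED12 from -0.26 to 0.11 and MED29 from -0.06 to 0.07, with the highest value of each without 16'-DEC replicate 3. The log2 ratio of CCNT1 to CCNT2 ran from 1.45 to 1.57 and that of CDK8 to CDK19 from 0.38 to 0.57. TPM hold no depth, so no counting limit can be given for low genes such as MED26.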

Other observations

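POLR2J has relatives whose levels are listed apart from it. POLR2J3 averaged 19.3 ± 4.36 TPM with 16'-DEC and 20.3 ± 2.24 TPM with DMSO, and POLR2J4 12.9 ± 1.05 TPM with 16'-DEC and 13.1 ± 0.577 TPM with DMSO (SD, n = 3 each). Both symbols have more than 1 entry in the table, and these are the more abundant ones. In both the libraries of the groups overlapped, as in POLR2J. POLR2J2 averaged 0.26 ± 0.0515 TPM with 16'-DEC and 0.735 ± 0.314 TPM with DMSO, with no overlap. POLR2M, which carries a polymerase symbol but encodes a protein bound to the enzyme rather than one of its 12 subunits, was at 11.9, 12.2 and 9.57 TPM with 16'-DEC and at 33.5, 30 and 33.2 TPM with DMSO, with no overlap.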
